A study of Caenorhabditis elegans with 2 samples.

Results

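The regions described here are 315 stretches of the Caenorhabditis elegans autosomes that lie between protein-coding genes, outside their promoter windows, and carry strong ELT-3 ChIP-seq signal. ELT-3 belongs to the GATA transcription factors and is known for its place in the worm's epidermis. The experiment used whole L3 larvae of mixed sex from strain OP75, which is mutant for unc-119 (allele ed3, chromosome III) and has the transgene wgIs75 for ELT-3 tagged with enhanced green fluorescent protein. There was 1 group with 2 biological replicates, so no condition was compared with another, and both replicates carry the mutation and the transgene. The antibody field names elt-3 without saying which part of the fusion was recognised, and the promoter that drives the transgene is not stated. The members were chosen from the list of the pooled replicates on genome build ce11, which the deposit labels as peaks and background. Its 21761 regions were sorted by the authors' signal value, the 1500 strongest were taken, and X-linked regions were left out. Of the rest, a region was kept when its summit was in no protein-coding gene body and clear of every protein-coding promoter window, here the 1000 bp before a 5′ end and the 200 bp after it. By position alone 24.5% of all pooled regions, X included, were distal. The members, which leave out X, were from 22.4% (chromosome III) to 35.1% (chromosome IV) of each autosome's strongest regions. Every summit in these members is the middle of a region 356 bp wide. Signal and position thus chose the members and are given below as description. The antibody measured binding in whole animals, so binding in more cells and stronger binding per cell cannot be told apart, and no expression was measured with which to check the tissue.

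GATA factors recognise the DNA word WGATAR through zinc fingers, and ELT-3 acts with other GATA factors in the differentiation of the syncytial epidermis that secretes the collagenous cuticle. Worm genes are packed closely, and most known regulatory elements lie within a few kilobases of a 5′ end. Distal elements between genes are less well studied, and they can lie beside small noncoding RNA genes with promoters of their own. WGATAR stands for a set of 4 words, searched on either strand. With A at both ends it is AGATAA. When the last base changes to guanine it becomes AGATAG. With thymine as the first base it reads TGATAA, and with both changes made together it reads TGATAG.

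The sequences at the summits show the contrast on which the results turn, between distal regions with the GATA word in the summit window and strong ones without it. Each line below is the plus strand within 50 bp of a summit (RefSeq WBcel235, the ce11 assembly), with WGATAR matches in capitals on whichever strand they were found, so that TTATCA is TGATAA read from the other strand. The first 6 regions have matches. The next 3 are strong and have none, and the last 3 lie by the collagen gene sqt-3, the cytochrome P450 gene cyp-14A5 and a small nucleolar RNA gene.
Rank 1, between Y37A1A.2 and Y37A1A.4, chrIV:13919373-13919473: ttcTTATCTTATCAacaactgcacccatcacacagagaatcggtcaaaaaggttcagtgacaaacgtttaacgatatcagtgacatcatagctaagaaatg
Rank 30, between irld-18 and dmd-6, chrIV:14594360-14594460: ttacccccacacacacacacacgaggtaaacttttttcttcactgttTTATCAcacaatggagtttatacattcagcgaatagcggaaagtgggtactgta
Rank 51, upstream of C34B4.2, chrV:13081272-13081372: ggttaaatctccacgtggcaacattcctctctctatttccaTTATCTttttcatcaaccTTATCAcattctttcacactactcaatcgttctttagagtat
Rank 57, by Y105C5B.1413, chrIV:16180997-16181097: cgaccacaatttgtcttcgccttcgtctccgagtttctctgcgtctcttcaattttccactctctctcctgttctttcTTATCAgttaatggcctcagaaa
Rank 88, upstream of C08E8.3, chrV:18346221-18346321: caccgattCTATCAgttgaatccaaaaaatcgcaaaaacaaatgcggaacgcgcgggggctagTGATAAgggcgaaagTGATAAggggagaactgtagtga
Rank 129, between F45D3.1 and F45D3.2, chrV:12533769-12533869: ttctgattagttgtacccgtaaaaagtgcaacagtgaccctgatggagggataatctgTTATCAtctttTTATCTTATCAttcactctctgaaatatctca
Rank 2, upstream of B0334.20, chrII:11502080-11502180: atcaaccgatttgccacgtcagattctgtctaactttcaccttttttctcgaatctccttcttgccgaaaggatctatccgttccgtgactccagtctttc
Rank 18, at C17G10.11, chrII:5605656-5605756: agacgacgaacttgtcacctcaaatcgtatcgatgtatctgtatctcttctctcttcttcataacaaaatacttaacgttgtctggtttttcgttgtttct
Rank 70, at ZK829.13, chrIV:11956508-11956608: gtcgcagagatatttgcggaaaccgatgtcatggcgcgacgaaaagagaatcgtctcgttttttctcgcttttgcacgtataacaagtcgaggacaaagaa
Rank 175, past the end of sqt-3, chrV:12354543-12354643: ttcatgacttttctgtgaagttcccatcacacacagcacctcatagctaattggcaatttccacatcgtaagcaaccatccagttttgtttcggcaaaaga
Rank 196, upstream of cyp-14A5, chrV:5425247-5425347: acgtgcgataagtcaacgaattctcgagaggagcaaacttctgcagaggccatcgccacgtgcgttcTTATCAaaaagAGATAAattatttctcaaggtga
Rank 291, in F12F6.11, chrIV:11549794-11549894: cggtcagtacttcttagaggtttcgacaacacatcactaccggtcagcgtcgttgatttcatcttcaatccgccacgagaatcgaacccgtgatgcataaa

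In rank 1 the matches AGATAA and TGATAA overlap on one strand. In rank 51 the same words stand apart. Rank 88 has TGATAA in 2 copies, each followed by G, and 1 TGATAG. Rank 129 has an overlapping pair like that of rank 1 and a further TGATAA. Ranks 2, 18 and 70 have no match, and the letters of rank 175 hold none either.

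The 3 strongest distal regions, ranks 1, 2 and 18, were near the top of both replicate lists. The pooled ranking comes from the same libraries, so this is partly built in. Each replicate's signals are on the scale of its own list. They run from 6.45 to 95.2 in replicate 1 and from 8.47 to 53.9 in replicate 2. Rank 1, the top region of the whole list with a pooled signal of 148, had a signal of 92.4 in replicate 1 and 53.9 in replicate 2, which put it at rank 2 and rank 1 of those lists. Its summit lay 6394 bp upstream of Y37A1A.2 and 14963 bp from Y37A1A.4 on the other side. Rank 2, with a pooled signal of 135, stood at 81.6 in replicate 1 and 47.7 in replicate 2, rank 6 in each. It lay in the gap between B0334.20 and npr-41, a neuropeptide receptor gene. Rank 18, with a signal of 96.4, had 58.4 in replicate 1 and 36.7 in replicate 2. Its summit was inside C17G10.11, a noncoding RNA gene. In these 3 regions the replicates placed the region within the first 33 ranks.

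Other members of the first 20 had one replicate well above the other in rank. Rank 49, 1310 bp upstream of Y38E10A.14, was at rank 55 of replicate 1 with a signal of 48.5 and at rank 5181 of replicate 2 with a signal of 14.7. Rank 77, in the gap between cbl-1, a cystathionine beta-lyase gene, and lin-41, a heterochronic regulator, was at rank 30 of replicate 1 and rank 6005 of replicate 2. Rank 57, by Y105C5B.1413, was at rank 39 and rank 892. Rank 86, by F40E3.3, was at rank 88 and rank 1047. In all 4 of these regions the position was nearer the top in replicate 1.

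The rest of the 20 strongest lay at genes of many kinds, with pooled signals from 90.0 down to 65.1. Rank 26 lay beyond Y48G8AR.8, with 51.8 in replicate 1 and 39.0 in replicate 2. Rank 30, in the longest gap that holds a member, had 49.3 and 38.1. Rank 43 lay 2469 bp upstream of the reticulon gene ret-1, with 53.6 and 27.2. Both replicates thus placed these 3 within their first 161 ranks. Rank 47 lay by Y37D8A.5, rank 51 1733 bp upstream of C34B4.2, rank 52 by T28F4.1, rank 61 2963 bp upstream of R08D7.7, and rank 70 between gdh-1, for glutamate dehydrogenase, and tgt-1. Rank 75 lay 1901 bp upstream of mml-1, a Mondo-type transcription factor, and rank 88 3858 bp upstream of C08E8.3. Rank 90 lay 1419 bp upstream of W09D10.4, and rank 94 was in the gap before metr-1, the methionine synthase gene. Rank 96 lay 3729 bp upstream of let-418, which encodes a Mi-2 chromatin remodeller.

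Among all 315 members the signal ran from 29.9 to 148 with a median of 35.3. The list that passed the irreproducible discovery rate (IDR) threshold held 59 of the members (18.7%). The members' deposited −log10 q-value ran from 0.344 to 2.45, so membership is a matter of rank and not a call of significance. The last member, rank 1495, had a signal of 29.92, and the first distal region left out, rank 1501, had 29.90. At the promoter edge the closest member lay 1012 bp upstream of oac-50, and the promoter region with the most distant nearest 5′ end lay 995 bp upstream of F16G10.14. On the downstream side, past a gene's 3′ end, members lay closer to a 5′ end, down to 291 bp at W04D12.1 (rank 1188).

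The GATA word was found at member summits more often than beside them. WGATAR was within 50 bp of the summit in 117 of 315 members (37.1%, 95% Wilson interval 32 to 42.6) and in 65 equally wide control windows placed 500 bp to the right of the summits (20.6%, 16.5 to 25.4). In 90 members only the summit window had the word, and in 38 only the control window did (two-sided exact McNemar p = 4.92e-06). The test runs over regions of 1 experiment and not over animals. Among all pooled regions 23.9% of summits had the word. Among weaker distal intergenic regions of the autosomes, ranks 1501 and beyond, it was 25.5% of 3636. The members' share was higher than that of the weaker ones by 11.6 percentage points (Newcombe interval 6.27 to 17.3). Signal rank, which separates those sets, also goes with base composition. The mean GC content of the summit window was 37.8% in members and 33.5% in weaker distal regions, and 24.0% of the members' bases were marked as repeats or low complexity in RefSeq, against 36.6%. The part of base composition in the motif share was not tested.

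Distal members had the word more often than the other autosomal classes among the 1500 strongest regions. It was at 29.8% of 383 summits in promoter windows, a difference of 7.38 points (Newcombe interval 0.363 to 14.4), and at 29.3% of 475 summits in gene bodies outside promoter windows, a difference of 7.88 points (1.21 to 14.6). Both intervals reach close to 0. The control windows had it in 20.6% of distal members, 20.6% of promoter regions and 20% of gene-body regions.

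**Figure D1:**
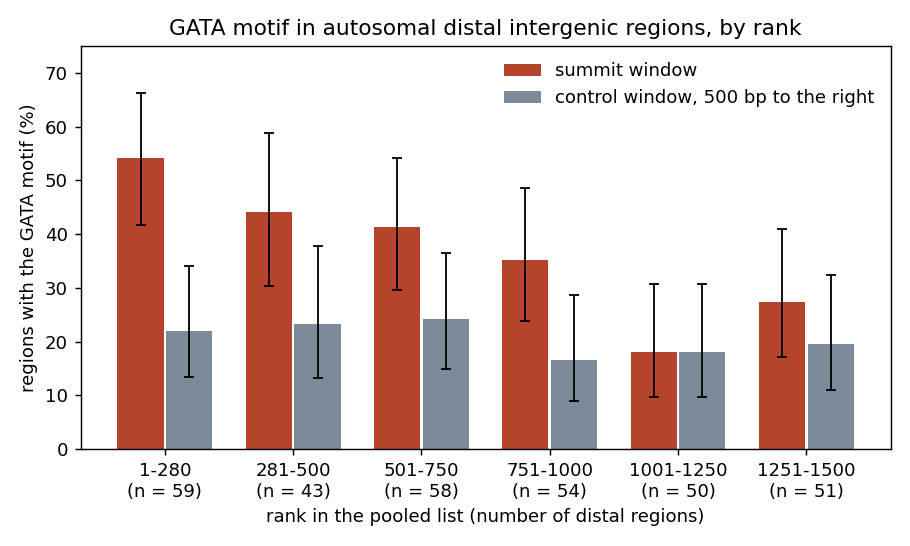
Share of autosomal distal intergenic regions with WGATAR within 50 bp of the summit (red) and in the control window 500 bp to the right (grey), in percent, by rank in the pooled list; bars are shares and lines 95% Wilson intervals. The summit share is 54.2% in ranks 1 to 280 and 18% in ranks 1001 to 1250, where the control share is also 18%.

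Within the members, the word was most frequent in the strongest. In ranks 1 to 280, which are the IDR list, 32 of 59 members had it (54.2%, 41.7 to 66.3) against 13 control windows (22%). In ranks 281 to 500 it was 19 of 43 (44.2%), in ranks 501 to 750 24 of 58 (41.4%), and in ranks 751 to 1000 19 of 54 (35.2%). In ranks 1001 to 1250 it was 9 of 50 at the summits and 9 of 50 beside them, and in ranks 1251 to 1500 14 of 51 (27.5%) against 10. The intervals of neighbouring rank groups overlap. The 57 members within the 1500 strongest regions of both replicates had the word in 30 cases (52.6%, 39.9 to 65.0). Their median pooled signal was 54.6, against 35.3 over all members, so rank and replicate agreement cannot be told apart here. Of the 222 members with a summit within 100 bp in both replicates, 79 had the word (35.6%). Among the other 93 it was 38 (40.9%).

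The 4 words did not contribute alike. TGATAA was in 69 member summit windows (21.9%) and 30 control windows (9.52%), and AGATAA in 43 (13.7%) and 18 (5.71%). AGATAG was in 17 (5.40%) and 7 (2.22%), and TGATAG in 22 (6.98%) and 15 (4.76%). At promoter summits TGATAA was in 17.2%, AGATAA in 8.62%, AGATAG in 6.01% and TGATAG in 6.01%. At gene-body summits the shares were 14.3%, 8.42%, 4.42% and 8%. AGATAG at promoters and TGATAG in gene bodies were thus not below the members. GATAAG was at 14% of member, 12.5% of promoter and 9.47% of gene-body summits. TGATAAG, which extends TGATAA by 1 base, was in 31 (9.84%) and 8 (2.54%), while weaker distal regions had it in 2.75% at the summit and 1.87% beside it. Promoter regions had TGATAAG in 8.09% and 1.04%, and gene-body regions in 6.11% and 1.89%. Of the 117 members with WGATAR, 75 had 1 match, 28 had 2 and 14 had 3 or more, with up to 5, by zig-13, a gene named after its values were seen. The nearest match was a median of 18.5 bp from the summit and within 10 bp in 42 members.

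**Figure D2:**
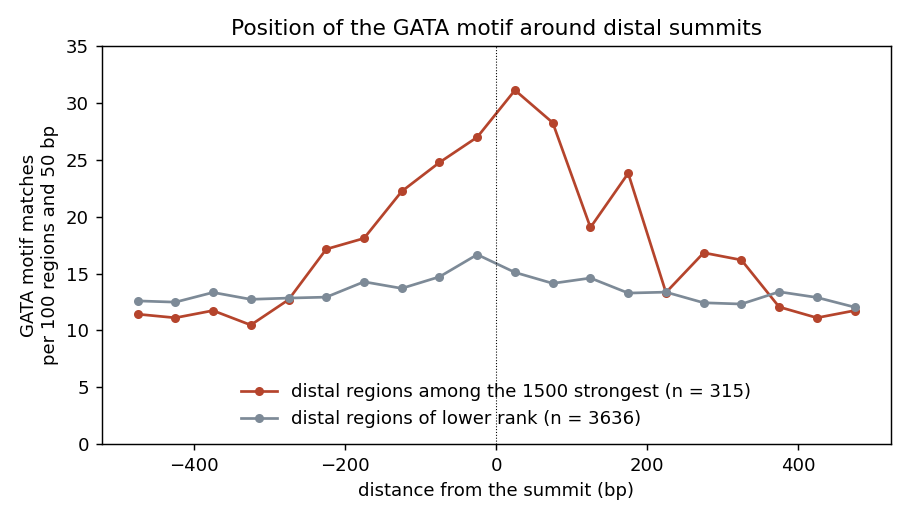
WGATAR matches per 100 regions in 50-bp steps by distance from the summit in bp, for members (red) and for autosomal distal intergenic regions of lower rank (grey). Members peak at 31.1 just right of the summit and stand at 11.1 to 11.7 beyond 400 bp, and weaker regions run between 12 and 16.7.

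The matches were centred on the summits but spread over a wide stretch. The members had 31.1 matches per 100 regions in the 50 bp to the right of the summit and 27 in the 50 bp to the left. At 150 to 200 bp to the right they still had 23.8, and in the outermost steps 11.4 and 11.7. Weaker distal regions had 15.1 and 16.7 beside the summit and 12.6 and 12 in the outermost steps. The step with the most matches was next to the summit in both sets.

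Other short words also differed in frequency between member summits and their control windows. GAGAGA was in 53 member windows (16.8%) and 19 control windows (6.03%), and 36 of the 53 had no match to the GATA motif. Another word, AGAGTG, was in 30 (9.52%) and 5 (1.59%). CACGTG, an E-box, was in 16 (5.08%) and 7 (2.22%). GACGCA was in 17 (5.40%) and 6 (1.90%) of the members' windows, against 40 (10.4%) and 9 (2.35%) at promoter summits. AAAATT was in 81 summit windows (25.7%) and 136 control windows (43.2%). Over all pooled summits GAGAGA was in 6.42%, AGAGTG in 3.55%, CACGTG in 1.79%, GACGCA in 2.56% and AAAATT in 41.7%. At promoter summits AGAGTG was in 5.22%, CACGTG in 3.66% and AAAATT in 28.2%. At gene-body summits the shares of these words were 5.47%, 4% and 32.8%. These words were picked with their counts known and were not tested. Weaker distal regions had GAGAGA in 6.82% of summit windows, against 6.99% of their control windows. Promoter regions had it in 18.8% and 4.70%, and gene-body regions in 12.6% and 7.16%. The summit windows of 162 members held neither that word nor the GATA word.

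From a member summit to the closest protein-coding 5′ end the median was 2329 bp (quartiles 1524 and 3697), against 2605 bp in weaker distal regions, and the rule itself sets the lower end of both. The gap between the flanking protein-coding genes had a median length of 6361 bp, against 6957 bp. Over 2 kb from the nearest 5′ end lay 196 members (62.2%, against 65.5%; difference -3.23 points, -8.91 to 2.17), and over 5 kb 50 members (15.9%, against 17.6%; difference -1.70 points, -5.54 to 2.90). Neither of these 2 differences had an interval clear of 0. Within 200 bp past a protein-coding 3′ end lay 42 members (13.3%, against 9.52%), a difference of 3.82 points (Newcombe interval 0.355 to 8.11). Within 500 bp it was 71 members (22.5%, against 18.1%; difference 4.42 points, -0.0416 to 9.49).

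**Figure D3:**
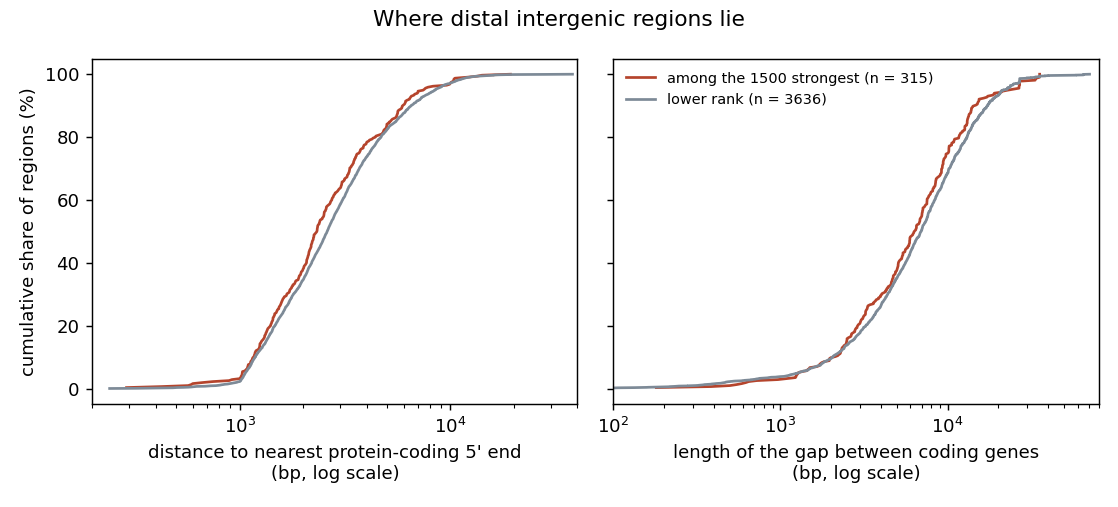
Cumulative share of regions, in percent, by distance to the nearest protein-coding 5′ end (left) and by length of the gap between the flanking protein-coding genes (right), both in bp on a log scale, for members (red) and for autosomal distal intergenic regions of lower rank (grey). The medians are 2329 and 2605 bp on the left and 6361 and 6957 bp on the right.

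Most members faced at least one neighbouring 5′ end. The flanking genes were divergent, with 5′ ends on both sides, for 95 members (30.2%), against 29.5% of weaker distal regions. They were in tandem for 189 (60%, against 55.4%) and convergent, with 3′ ends on both sides, for 31 (9.84%, against 15.0%). The convergent share was lower in members by 5.18 points (Newcombe interval -8.24 to -1.22). WGATAR was at 39 of 95 divergent summits (41.1%), 70 of 189 tandem ones (37.0%) and 8 of 31 convergent ones (25.8%, 13.7 to 43.2), with overlapping intervals. In the same order, the control windows had it in 24.2%, 19.6% and 16.1%. Of all members, 218 lay upstream of their nearest 5′ end and 97 downstream of it, beyond the gene's 3′ end.

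Over 10 kb from a 5′ end lay 9 members, of which irld-18, an insulin-receptor-like domain gene, had the strongest, rank 30, at 13371 bp. The others had their nearest 5′ ends at asp-13, let-805, D2023.3, C30G12.2, T06A4.1, lin-42, Y23H5B.5 and marc-4, up to 19248 bp at lin-42. The member at lin-42 lay only 125 bp past the 3′ end of this long gene, which encodes a PERIOD-like heterochronic protein, and it had 17.3 in replicate 1 and 19.2 in replicate 2. Genes other than irld-18 and lin-42 in this group were named after their values were seen.

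Some gaps held several members. The 315 members fell in 276 gaps, of which 246 had 1, 22 had 2 and 8 had 3 or more. Only 8 members overlapped another member, in 4 pairs. The gap of 35563 bp between irld-18 and dmd-6, a doublesex-type transcription factor gene, held 4 members, ranks 30, 120, 744 and 1432, of which 3 had WGATAR. Their summits ran from 14594410 to 14614420 on chromosome IV. In replicate 1 they were at ranks 52, 104 and 3924 with the last unmatched, and in replicate 2 at ranks 27, 1395, 1988 and 602.

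On chromosome V the gap between F45D3.1 and F45D3.2 held ranks 129, 727 and 1224, of which 129 and 727 overlap. Further along, rank 457 lay between F45D3.3 and F45D3.4, and ranks 128 and 1058 lay between F45D3.4 and sel-1. Rank 128 lay 1240 bp upstream of F45D3.4, with 218 as its rank in replicate 1 and 102 in replicate 2. Rank 457 was at rank 8617 of replicate 1 and rank 298 of replicate 2. The gap between idpb-4 and mak-1, a MAP-kinase-activated kinase gene, on chromosome II held ranks 158, 213 and 926, all with WGATAR, and 4 matches at rank 158. Ranks 213 and 926 overlap, and each was matched in 1 replicate only, rank 213 in replicate 1 and rank 926 in replicate 2. These loci were named after their values were seen.

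Cuticle collagen genes were the nearest to 9 members, 2.86% of all (1.51 to 5.34), against 0.853% of weaker distal regions, a difference of 2.00 points (Newcombe interval 0.612 to 4.50). They are 146 of the 17242 autosomal protein-coding genes (0.847%). The 9 members lay at 7 genes, with 2 members each at sqt-3 and dpy-13. Both pairs overlap, ranks 175 and 1070 and ranks 516 and 589, so these stretches enter the share and its interval more than once. All 9 summits were within 500 bp past a protein-coding 3′ end, at 76 to 474 bp, where 71 of all 315 members were (22.5%). The rule leaves summits in the first 1000 bp upstream of these genes to the promoter class, so the members do not show how often a summit lay upstream.

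At sqt-3, a collagen needed for body shape, rank 175 had its summit 273 bp past the 3′ end with a pooled signal of 53.2, and the overlapping rank 1070 lay at 474 bp with 32.4. Rank 175 had a signal of 29.3 in replicate 1 and no summit within 100 bp in replicate 2, and rank 1070 had 14.05 in replicate 1 and 24.0 in replicate 2. At rol-8, a body-shape collagen as well, rank 193 lay 232 bp past the 3′ end, with 29.7 in replicate 1 and 29.2 in replicate 2. At dpy-13 rank 516 lay at 167 bp, with 19.3 and 23.5. Both replicates thus had signal behind rol-8 and dpy-13. Of the 9 members only rank 1070 had WGATAR in the summit window, so the collagen members' share was 1 of 9, against 37.1% of all members.

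**Figure D4:**
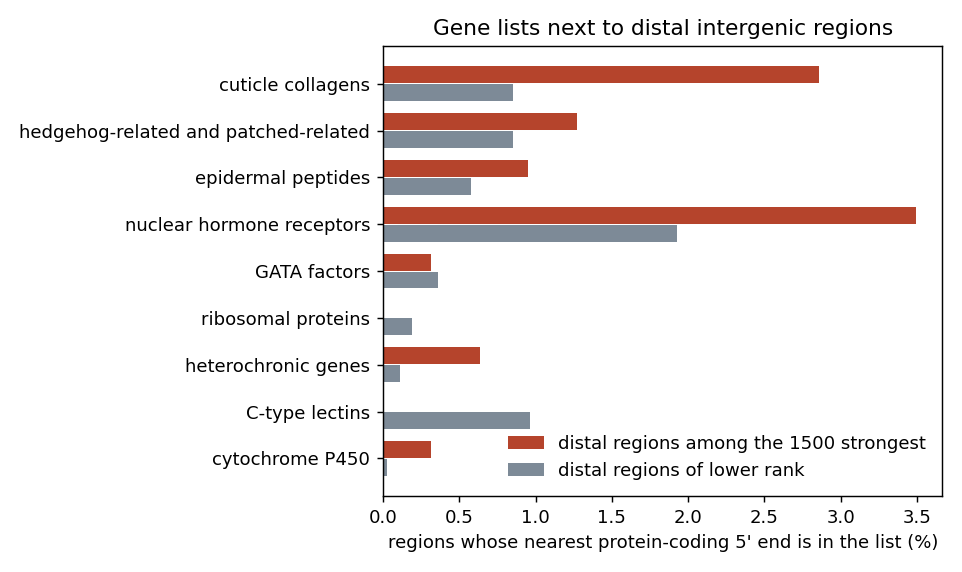
Share of regions whose nearest protein-coding 5′ end belongs to each of 9 gene lists, in percent, for members (red) and for autosomal distal intergenic regions of lower rank (grey). Cuticle collagens stand at 2.86% and 0.853%, and nuclear hormone receptors at 3.49% and 1.93%.

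Nuclear hormone receptor genes, ligand-regulated transcription factors that are numerous in worms, were nearest to 11 members (3.49%), against 1.93% of weaker distal regions (difference 1.57 points, -0.0439 to 4.25). The strongest was 1597 bp upstream of nhr-21, rank 178, with 28.4 in replicate 1 and 27.4 in replicate 2. The next lay at nhr-43, 55 bp past its 3′ end (23.0 and 24.1), and 2699 bp upstream of nhr-258 (19.7 and 21.7). Both replicates had a summit at all 3. Of the 11 members, 3 had WGATAR.

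The other lists had from 0 to 4 members each. Hedgehog-related and patched-related genes, whose products serve the cuticle and membrane traffic, were nearest to 4 members (1.27%, against 0.853%), at ptr-21, ptr-14 and ptr-18, with ranks from 810 down. The epidermal peptide list had 3 members (0.952%, against 0.578% of weaker distal regions; difference 0.375 points, -0.323 to 2.20), at nlp-40, nlp-24 and nlp-33. At nlp-24, rank 317 lay 1423 bp upstream, with WGATAR, 33.6 in replicate 1 and no summit within 100 bp in replicate 2. The name pattern of this list takes in all nlp genes, which include neuropeptides. The heterochronic genes lin-42 and lin-29, timing regulators of larval development, had 1 member each, which made 0.635% of members, against 0.110% of weaker distal regions (difference 0.525 points, 0.0330 to 2.18). Rank 718 lay 3182 bp upstream of lin-29 with 17.2 and 18.1. Among the GATA list egl-27, which encodes an MTA-type protein with a GATA-like zinc finger, had 1 member (0.317%, against 0.358%), rank 872, 7412 bp upstream with 11.6 in replicate 1 and 21.2 in replicate 2. The cytochrome P450 list had 1 member (0.317%, against 0.0275%; difference 0.290 points, -0.00115 to 1.75). It was rank 196 at cyp-14A5, 2015 bp upstream with 26.4 and 25.1 and both AGATAA and TGATAA. Its summit also lay inside linc-96, a long intergenic noncoding RNA (lincRNA) gene, and inside the ncRNA gene F08F3.12. These noncoding genes were named after the values were seen. Ribosomal protein genes and C-type lectin genes were nearest to no member, against 7 (0.193%) and 35 (0.963%) of weaker distal regions. A count of 0 in 315 allows up to 1.20%. C-type lectin genes did flank 3 members whose nearest 5′ end was that of another gene.

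A noncoding gene lay within 200 bp of the summit in 52 members (16.5%, 12.8 to 21). The share was 23.5% in weaker distal regions, 19.1% in promoter regions, 11.6% in gene-body regions and 11.2% in all pooled regions. Members were lower than weaker distal regions by 6.95 points (Newcombe interval -10.9 to -2.26). The classes behind this differed. Pseudogenes were near 11 members (3.49%) and 10.5% of weaker regions. Genes for piRNA, the small RNAs that silence foreign sequences in the germline, were near 9 members (2.86%) and 6.41% of weaker regions. In all pooled regions the pseudogene and piRNA shares were 2.55% and 2.78%, nearer to those of the members. Promoter regions had 0.261% and 1.83%, and gene-body regions 0.842% and 1.47%. The annotation's general class of ncRNA was near 26 members (8.25%, 5.69 to 11.8) and 5.09% of weaker regions, and small nucleolar RNA genes, which guide RNA modification, near 6 (1.90%, 0.876 to 4.09) and 0.468%. Genes for lincRNA were near 2 members (0.635%), 1.27% of weaker regions and 0.368% of all pooled regions. The intervals of members and weaker regions did not overlap for pseudogenes, piRNA genes or snoRNA genes. Promoter regions had an ncRNA gene nearby in 13.8% and a snoRNA gene in 1.31% (0.559 to 3.02). In gene-body regions these shares were 7.79% and 0.632%, and in all pooled regions 4.88% and 0.372%.

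Summits lay inside a noncoding gene in 25 members. The 5 strongest regions at an ncRNA gene were at C17G10.11 (rank 18), ZK829.13 (rank 70), C12C8.8 (rank 77), F45D3.15 (rank 128) and ZK1290.20 (rank 193), and their summits lay within the gene or up to 102 bp from it. These ncRNA genes were named after their values were seen. ZK829.13 spans 11956477 to 11956647 on chromosome IV, in the convergent gap between gdh-1 and tgt-1, and had 35.1 in replicate 1 and 35.6 in replicate 2. Of the 26 members at an ncRNA gene, 9 had WGATAR, and 22 had a summit in both replicates. Over all 52 members near a noncoding gene, 15 had WGATAR (28.8%, 18.3 to 42.3), against 102 of the other 263 (38.8%). The control windows had it in 14 of the 52 (26.9%) and in 51 of the 263 (19.4%). Near a noncoding gene the word was thus about as frequent beside the summits as at them. Only the summit window had it in 14 of the 52, and only the control window in 13.

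The 5 strongest snoRNA regions were at F12F6.11, C16D9.10, T19B4.8, C26B2.14 and F32E10.10. Rank 291 had its summit in F12F6.11, 1073 bp from the 5′ end of M04B2.7, with a signal of 16.1 in replicate 1 and 23.3 in replicate 2. Rank 366 had its summit in C16D9.10, at rank 441 of replicate 1 and rank 1247 of replicate 2. Rank 587 lay 21 bp from T19B4.8, at ranks 3367 and 130. The only transfer RNA gene was WBGene00023167 at rank 1143, with a signal of 22.4 in replicate 2 and no summit within 100 bp in replicate 1. No member lay within 200 bp of a miRNA, snRNA or rRNA gene, where a count of 0 in 315 allows up to 1.20%, and among promoter regions 6 of 383 (1.57%) were near an snRNA gene.

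The members were found in both replicates to an uneven degree. Within 100 bp of the pooled summit there was a summit in replicate 1 for 272 members (86.3%), in replicate 2 for 263 (83.5%) and in both for 222 (70.5%, 65.2 to 75.2). The 2 members with neither, ranks 586 and 885 by mstr-1 and F26A3.4, still overlapped regions of both lists and are named here because of their values. Both pooled and replicate lists come from the same libraries, so matches are partly built in. Among the 1500 strongest of each list were 164 members in replicate 1 (52.1%), 136 in replicate 2 (43.2%) and 57 in both (18.1%). For 72 members (22.9%) neither replicate placed the region there, although the pooled list did.

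**Figure D5:**
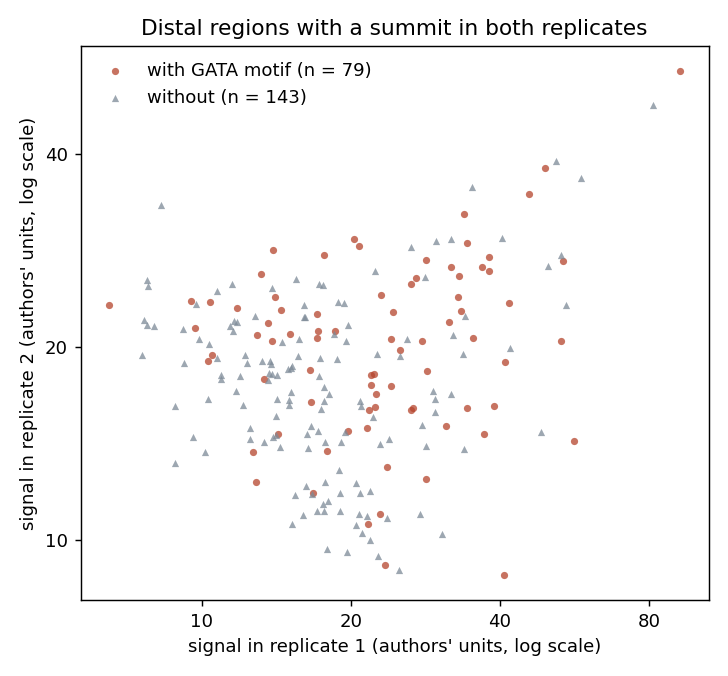
Signal of the 222 members with a summit in both replicates, replicate 1 on the x axis and replicate 2 on the y axis, in the authors' units on log scales; red circles have WGATAR within 50 bp of the summit and grey triangles do not. A few regions are high in both, led by rank 1 with 92.4 and 53.9, and over all 222 Spearman's rho is 0.0708.

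Across the 222 members with both values Spearman's rho was 0.0708 and Pearson's r of the log2 signals 0.180. These values describe regions that share libraries and were selected on pooled signal. Outside chromosome I, over 163 members, rho was 0.222 and r 0.310. The pooled signal followed replicate 1 more than replicate 2, with rho of 0.678 over 272 members and 0.478 over 263. The median rank of a matched member was 993 in replicate 1 and 1380 in replicate 2, in lists of 30000 regions each.

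Chromosome I held 84 members, 5.57 per Mb, and the other autosomes from 2.83 per Mb on chromosome III to 3.77 per Mb on chromosome IV. Of the 84, 75 had their summit in the first 8 Mb. The whole pooled list was denser on chromosome I as well, with 278 regions per Mb against 173 to 213 on the other autosomes. Of the 1500 strongest pooled regions chromosome I held 374, and the other autosomes from 174 (III) to 233 (V). Members were 22.5% of those 374, against 22.4% on chromosome III to 35.1% on chromosome IV. The excess on chromosome I was thus not particular to distal regions. Chromosome I had 341 of the 1500 strongest regions of replicate 1 and 407 of replicate 2. WGATAR was at 24 of the 84 summits on chromosome I (28.6%, 20.02 to 39.0), 15 of 51 on II (29.4%), 17 of 39 on III (43.6%), 25 of 66 on IV (37.9%) and 36 of 75 on V (48%, 37.1 to 59.1). In the same order, the control windows had it in 17.9%, 15.7%, 23.1%, 21.2% and 25.3%. The part of chromosome I's density in the results was not tested. Without chromosome I the motif share was 40.3% against 21.6% in control windows. The gene unc-119, mutated in the strain, had no member nearer than 185031 bp.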

How the data were processed

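Per the README text in the deposit, the authors made each replicate's list from its own alignments, the pooled list from those of both replicates, each with 1 further file that the text does not describe, and the IDR list from these 3 lists. The deposited signal (narrowPeak column 7) is the authors' own, with scaling not stated, and the deposited −log10 q-value was read only to describe the lists. The sources used here do not give the aligner, the peak caller, the IDR threshold or the read depth. Regions on ce10 were not analysed here. Summits were placed against gene-level models of Ensembl release 115 (WBcel235, whose coordinates are those of ce11), with 19973 protein-coding genes on nuclear chromosomes. Positions are 1-based, and replicate numbers are those of the labels.

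Shares have 95% Wilson intervals and differences of shares Newcombe intervals, which cover counting error over regions only. The motif was tested by a two-sided exact McNemar test (threshold 0.05), and no other test was run. The placement against genes, the motif search and the McNemar count were tested on simulated data, and the other steps were not. The text names the 20 strongest members, the 5 strongest per class of snRNA, snoRNA, miRNA, rRNA or tRNA gene and the 3 strongest per gene list, except where it says otherwise. Members, lists and words were chosen with earlier results of these data known. Python 3.11.15, pandas 2.3.3, numpy 2.4.6 and scipy 1.17.1 were used.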

Additional observations from a re-analysis of the deposited data

How the results depend on the processing

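No paired analysis was possible because there is 1 group of samples. The excess of WGATAR at summits over control windows, 16.5 percentage points, stayed past the threshold in all 14 alternatives tried, from 8.25 points with GATAAG in place of WGATAR to 32.2 in the IDR list. It was 10.5 points (exact McNemar p = 0.00455) with the list of replicate 2 alone and 23.2 with that of replicate 1 alone.

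The summit share of 37.1% moved with the window (22.2% within 25 bp, 55.6% within 100 bp), the word (14% with GATAAG) and the ranks taken (43.9% in the 1000 strongest, 54.2% in the IDR list), and was 34.2% to 43.2% with 1 replicate left out. The number of members was 59 in the IDR list and 295 to 336 with 1 replicate left out. The share between divergent genes was 37.3% in the IDR list and 30.7% to 32.5% with 1 replicate left out. The median distance was 3053 bp with a promoter window of 2000 bp, and 2376 to 2510 bp with 1 replicate left out. The share matched in both replicates was 93.7% by any overlap, 91.4% within 200 bp, 84.7% in the IDR list and 18.1% among the 1500 strongest of each. The share near a noncoding gene was 7.94% for a summit inside one, 25.7% within 500 bp, 33.7% within 1000 bp and 9.62% without summits in noncoding gene bodies other than 21U RNA, and 14.6% to 20.7% with 1 replicate left out. The shifts with window, distance, word and matching rule follow from those settings' own construction. The cause of those with the rank or with 1 replicate left out was not tested. Leaving out chromosome I was chosen after seeing the data. Placing regions by their middle gave the same values, since summit and middle coincide. Read depth was not known, so no limit from it could be given.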

Other observations

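A word of the internal promoter of transfer RNA genes, the B box (GTTCGANNC), was searched within 50 bp of the summits after the sequences were seen. It was in 4 members (1.27%) and in 5 of their control windows (1.59%), against 0.523% of weaker distal summits. The 4 members were ranks 291, 1068, 1095 and 1143, and 3 of them lay at annotated noncoding genes, the snoRNA genes F12F6.11 and F32E10.10 and the tRNA gene WBGene00023167. Rank 1068 lay 1027 bp upstream of col-144.

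Over their full width only 3 pairs that do not overlap shared a word of 30 bases, ranks 26 and 969 with 2 such words, ranks 293 and 748 with 2 and ranks 1346 and 1408 with 16. Such words find near-identical copies only, and more diverged repeats were not searched.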
